A study of Mus musculus with 6 samples.

Results

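Hippocampal RNA from 3 Ahr-KO and 3 wild-type mice was examined for 10 neuronal microtubule genes. They were listed by name, with earlier results of these data already known. They are the stathmins Stmn1, Stmn2, Stmn3 and Stmn4, the microtubule-associated proteins Mapt, Map1b and Map2, and the tubulins Tubb3, Tubb2b and Tuba1a. All 10 were measured, of 22180 genes in all, each by the brightest of the probe sets that the platform annotation pairs with that symbol alone. The missing gene, Ahr, codes for a transcription factor that small aromatic ligands activate (the aryl hydrocarbon receptor), and the study asked what its loss does in the hippocampus. The hippocampi came from dissected hemibrains, each array carries the RNA of 1 mouse, and the wild-type mice are the only controls. The labels give the genotypes as Ahr-KO and wildtype and state neither the allele, the strain, the age nor the sex, so it is not known here whether the receptor was missing from all cells or during development.

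Microtubules are hollow polymers of alpha- and beta-tubulin that form the tracks of axons and dendrites. Stathmins bind free tubulin dimers and promote microtubule disassembly, whereas tau (Mapt), MAP2 and MAP1B bind along the polymer and stabilise it. In the hippocampus these genes are known for their part in neurite outgrowth, in the dendritic (MAP2) and axonal (tau) cytoskeleton and, for Stmn1, Tubb3 and Tuba1a, in young and growing neurons.

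On the arrays Ahr itself read 6.62, 6.91 and 6.74 log2 in Ahr-KO and 7.68, 7.50 and 7.44 in wild type, so the targeted gene was lower in every library labelled Ahr-KO, and which part of the gene its probe set reads is not given in the sources used here. Array medians lay between 5.79 and 5.85 log2. Defining genes of the labelled tissue were present: all 4 granule neuron markers (Prox1, Dsp, C1ql2, Stxbp6) and the 3 measured of 4 excitatory neuron markers were above the median signal of 6.41 log2. Ttr, a choroid plexus gene, stood apart on Ahr-KO array 1 (13.15) and wild-type array 2 (12.64) from the other 4 arrays (8.64 to 9.06). Summed linear signals of the neuron markers did not overlap between genotypes. They ran from 10008 to 10108 in Ahr-KO and from 9706 to 9873 in wild type for excitatory neurons, from 2589 to 2851 and from 2205 to 2532 for granule neurons, and from 7451 to 7700 and from 6940 to 7272 for the 5 interneuron markers. Those of astrocytes (8879 to 9392 and 8882 to 9117), oligodendrocytes (4495 to 6204 and 5462 to 5658, 5 of 6 measured) and microglia (1515 to 1893 and 1686 to 1799) overlapped, and of 3 blood markers none was measured. These sums are dominated by the brightest probe sets. Among single genes, 1370 of 22180 were higher in Ahr-KO without overlap, and 606 of the 11360 at or above the median signal. The mean over the markers of the log2 value minus each gene's own mean overlapped between genotypes for excitatory neurons (-0.02 to 0.03 in Ahr-KO, -0.03 to 0.0049 in wild type) and interneurons (-0.07 to 0.05 and -0.06 to 0.06), and did not for granule neurons (0.03 to 0.17 and -0.19 to 0.01). The part of cell makeup in the results on microtubule genes was not tested. In whole tissue, fewer cells of a type and less RNA per cell cannot be told apart.

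Because the mice differ in a transcription factor, the stretch just before the start of each gene was looked up for the receptor's core motif. The liganded receptor, paired with ARNT, binds DNA at the core GCGTG, which was searched on both strands. The RefSeq promoter table (GRCm38.p6) held 5 of the 10 members, and their last 60 bases before the annotated start are shown 5′ to 3′ on the gene's strand, in lower case with the core in capitals.
Map1b (chr13:99516603-99516662, minus strand): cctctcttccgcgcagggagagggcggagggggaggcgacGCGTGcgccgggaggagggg
Map2 (chr1:66175269-66175328, plus strand): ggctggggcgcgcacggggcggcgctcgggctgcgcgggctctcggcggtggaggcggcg
Stmn3 (chr2:181314501-181314560, minus strand): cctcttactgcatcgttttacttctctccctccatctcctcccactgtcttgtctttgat
Tubb3 (chr8:123411493-123411552, plus strand): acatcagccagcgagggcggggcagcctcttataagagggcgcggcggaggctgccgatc
Tuba1a (chr15:98953502-98953561, minus strand): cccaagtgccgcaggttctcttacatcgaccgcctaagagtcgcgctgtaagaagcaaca
Over the whole 250 bases before the start, 1 of the 5 held the core on either strand, and so did 28.2% of all 32851 promoter windows of that length. That member was Map1b, with the core beginning 20 bases before the start. In Tubb3 a copy lay 41 bases past the start, outside the 250 bases searched. A match of 5 letters is a description and not a binding site, and a missing match says only that these letters are not in the window. None of the 10 genes lies on the chromosome of Ahr in that assembly.

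No member differed between genotypes past the threshold of the test over all genes (limma, adjusted p under 0.05, 0 of 10). No gene at all passed it, 0% of 22180. Once the prior variance followed the signal level, 2 genes passed, neither of them a member (limma-trend, 0.00902%). Without that trend Ahr itself did not pass, at -0.78 ± 0.10 log2 (SE; limma unadjusted p = 4.33e-05, adjusted p = 0.320). Failing the threshold thus does not show that a gene is unchanged. At an unadjusted p under 0.05, 2 members were lower in Ahr-KO, Stmn1 and Stmn4, and 0 were higher, where 2.65% of all genes were lower and 3.54% higher. Among the 11360 genes at or above the median signal, a group that includes all 10 members, 2.69% were lower and 2.22% higher at that level. The mean was lower in Ahr-KO for 8 of the 10, beside 49.3% of all genes and 56.9% of the genes at or above the median signal. The median difference of the 10 was -0.07 log2 (Ahr-KO minus wild type), against 0.0019 over all genes and -0.02 over the brighter ones. It was -0.10 without Ahr-KO array 2 and -0.105 without wild-type array 3. Without any other single array it lay between -0.0687 and -0.0559, and with quantile normalization it was -0.0503.

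**Figure D1:**
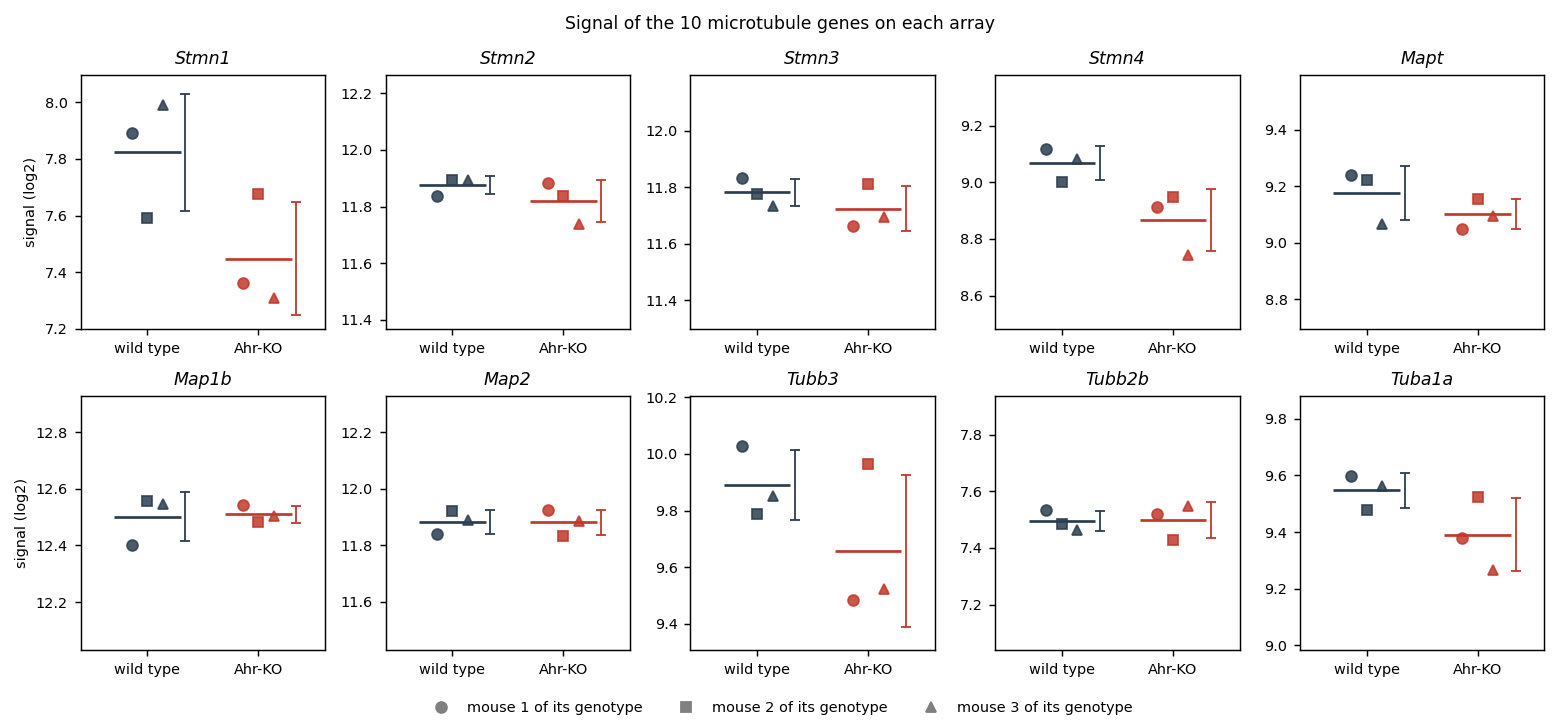
Signal in log2 (vertical axis, the same span in each panel) of the 10 genes in wild-type (dark) and Ahr-KO (red) mice, 1 point per array, with the mean as a horizontal line and the SD (n = 3) as a bar. Stmn4 alone shows no overlap between genotypes, and Stmn1, Tubb3 and Tuba1a overlap through Ahr-KO array 2.

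Stmn1 showed the largest difference of the 10. This gene encodes stathmin, the cytosolic founder of the family, which is inactivated by phosphorylation. It read 7.36, 7.68 and 7.31 log2 on Ahr-KO arrays 1 to 3 and 7.89, 7.59 and 7.99 on wild-type arrays 1 to 3. Ahr-KO arrays 1 and 3 were below every wild-type array, while Ahr-KO array 2 was above wild-type array 2, so the genotypes overlapped. The Ahr-KO mean was 7.45 ± 0.20 and the wild-type mean 7.82 ± 0.21 (SD, n = 3 each). The difference was -0.38 ± 0.13 log2 (SE, 95% interval -0.68 to -0.07), or 1.30-fold lower in Ahr-KO (limma unadjusted p = 0.0212, adjusted p = 0.788). It ranked 593 of 22180 genes by p. With both arrays of high Ttr left out, which was tried after seeing the data, it was -0.45.

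Stmn4, a membrane-anchored brain stathmin also called RB3, was the one member whose genotypes did not overlap. It read 8.91, 8.95 and 8.74 log2 in Ahr-KO and 9.12, 9.00 and 9.08 in wild type, with Ahr-KO array 2 just below wild-type array 2. Values lower in Ahr-KO without overlap occurred in 5.75% of all genes and in 7.51% of those at or above the median signal. The difference was -0.20 ± 0.08 log2 (SE, 95% interval -0.39 to -0.01), 1.15-fold (limma unadjusted p = 0.0410, adjusted p = 0.806). A dimmer second probe set of Stmn4 read 7.58, 7.24 and 7.31 in Ahr-KO and 7.41, 7.46 and 7.58 in wild type. There the genotypes overlapped, with a difference of -0.11.

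Stmn2 and Stmn3, which encode the axonal growth and maintenance protein SCG10 and the related SCLIP, showed small differences. Stmn2 read 11.88, 11.84 and 11.74 log2 in Ahr-KO and 11.84, 11.89 and 11.90 in wild type, a difference of -0.06 (95% interval -0.23 to 0.11). Stmn3 read 11.66, 11.81 and 11.70 in Ahr-KO and 11.83, 11.78 and 11.74 in wild type, a difference of -0.06 (-0.23 to 0.12). In both the genotypes overlapped, and for both the interval leaves room for a change of at most 1.17-fold lower or 1.08-fold higher in Ahr-KO.

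Whether the stathmins differed from each other was tested on the log2 ratio of each pair within an array. Over the 6 pairs the exact two-sided permutation test cannot go below 0.1 with 3 arrays against 3. The log2 ratio of Stmn1 to Stmn2 averaged -4.37 ± 0.19 in Ahr-KO and -4.05 ± 0.22 in wild type (SD, n = 3 each; exact permutation p = 0.2, 0.24 adjusted over the pairs). It thus differed by -0.32, as did the ratio of Stmn1 to Stmn3, while that of Stmn2 to Stmn3 differed by 0.0012 (exact permutation p = 0.2 and 1.0). The absolute ratios also depend on the probes and are not relative amounts. All 6 ratios overlapped between genotypes. With a smallest possible p of 0.1 the test could not reach 0.05 for any pair, so it does not settle whether the stathmins differed from each other.

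**Figure D2:**
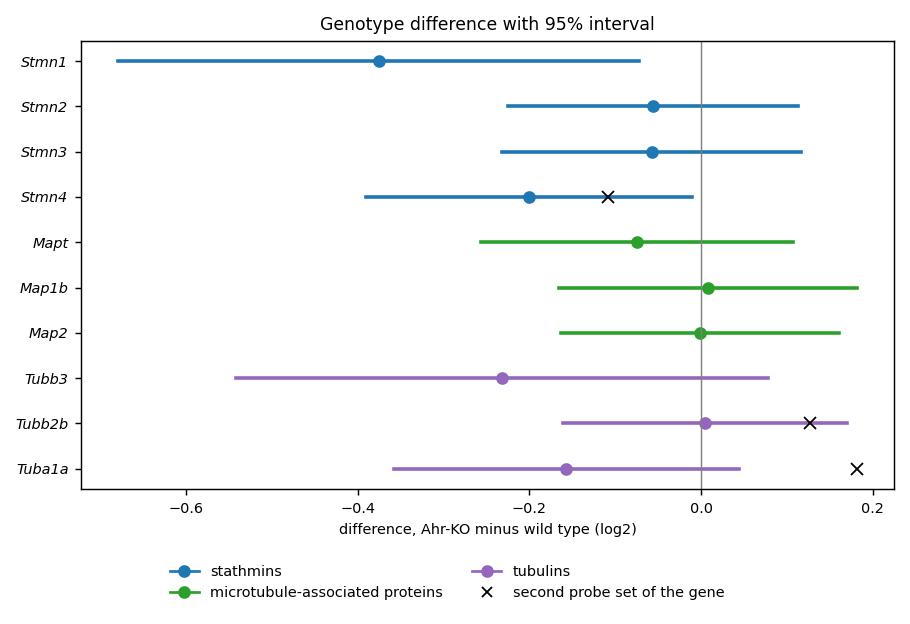
Difference between genotypes (horizontal axis, Ahr-KO minus wild type in log2) for the 10 genes, with limma's 95% interval as a line and colours for the 3 groups. The intervals of Stmn1 and Stmn4 end below 0, and crosses mark the second probe sets of Stmn4 (-0.11), Tubb2b (0.13) and Tuba1a (0.18).

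Of the genes of proteins that bind along the polymer, Map1b and Map2 showed differences near 0 and Mapt one of -0.07. Mapt, which encodes tau of the axon, read 9.05, 9.16 and 9.10 log2 in Ahr-KO and 9.24, 9.22 and 9.07 in wild type. Wild-type array 3 lay among the Ahr-KO arrays, and the difference was -0.07 ± 0.08 (SE, 95% interval -0.26 to 0.11; limma adjusted p = 0.903). Map1b, prominent in growing axons, read 12.54, 12.48 and 12.51 in Ahr-KO and 12.40, 12.56 and 12.55 in wild type. Its difference was 0.0083 ± 0.08 (-0.17 to 0.18; limma adjusted p = 0.993), and wild-type array 1 was the lowest. Map2, the dendritic marker, read 11.92, 11.83 and 11.89 in Ahr-KO and 11.84, 11.92 and 11.89 in wild type. All 6 Map2 values lay within 0.09 log2, and the difference was -0.0014 ± 0.07 (-0.16 to 0.16; limma adjusted p = 0.999). For Map1b and Map2 the sign changed with the scaling of the arrays, so no direction is given. These intervals do not show that the genotypes are alike, but a change of Map2 beyond 1.12-fold in either direction lies outside them.

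Among the tubulins, Tubb3 and Tuba1a had lower means in Ahr-KO by their brightest probe sets. The SD pooled over genotypes was 0.21 and 0.10 log2, beside 0.20 for Stmn1 and 0.09 for Stmn4. Tubb3, the neuron-specific beta-tubulin used as a marker of young neurons, read 9.48, 9.97 and 9.52 log2 in Ahr-KO and 10.03, 9.79 and 9.85 in wild type. Ahr-KO arrays 1 and 3 were below every wild-type array, and Ahr-KO array 2 was above 2 of the 3. The means were 9.66 ± 0.27 and 9.89 ± 0.12 (SD, n = 3 each), a difference of -0.23 ± 0.14 (SE, 95% interval -0.54 to 0.08; limma unadjusted p = 0.123, adjusted p = 0.829). Without Ahr-KO array 2 it was -0.39 (limma unadjusted p = 0.00495), and it was -0.15, -0.17 and -0.16 without Ahr-KO array 1, Ahr-KO array 3 and wild-type array 1.

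Tuba1a, the main alpha-tubulin of growing neurons, was highest on wild-type array 1, as Tubb3 was, and lowest on Ahr-KO array 3. It read 9.38, 9.52 and 9.27 log2 in Ahr-KO and 9.60, 9.48 and 9.56 in wild type, with Ahr-KO array 2 above wild-type array 2. The difference was -0.16 ± 0.09 (SE, 95% interval -0.36 to 0.04; limma unadjusted p = 0.109, adjusted p = 0.823), and -0.10 without Ahr-KO array 3. A dimmer second probe set went the other way, with 6.13, 6.02 and 6.13 in Ahr-KO against 5.89, 6.09 and 5.76 in wild type, a difference of 0.18 with overlap. The mean of both probe sets differed by 0.01, so the direction for Tuba1a depends on the probe set.

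Tubb2b, a beta-tubulin of the developing brain, read 7.52, 7.43 and 7.55 log2 in Ahr-KO and 7.53, 7.49 and 7.46 in wild type. The genotypes overlapped throughout, with a difference of 0.0043 (95% interval -0.16 to 0.17; limma adjusted p = 0.997) whose sign changed when each array was centred on its median. Its second probe set read 6.64, 6.61 and 6.97 against 6.53, 6.66 and 6.64, a difference of 0.13 carried by Ahr-KO array 3. Tubulin genes have closely similar coding sequences, and where the probes of these probe sets lie is not given in the sources used here. A share of each tubulin signal may therefore belong to a paralog.

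The highest and lowest values of the members were spread unevenly over the arrays. Ahr-KO array 3 was the lowest of the 6 for 4 members (Stmn1, Stmn2, Stmn4 and Tuba1a) and Ahr-KO array 1 for 3 (Stmn3, Mapt and Tubb3). Ahr-KO array 2 was the lowest for 2 (Map2 and Tubb2b). Map2 was highest on Ahr-KO array 1 and Tubb2b on Ahr-KO array 3. Wild-type array 1 was the highest for 5 (Stmn3, Stmn4, Mapt, Tubb3 and Tuba1a) and the lowest for Map1b. The median over the 10 members of the value minus the gene's own mean was -0.07, 0.0040 and -0.08 on Ahr-KO arrays 1 to 3 and 0.09, 0.03 and 0.04 on wild-type arrays 1 to 3. On the same scale the median of all genes stayed between -0.0076 and 0.0089. By the members' median, Ahr-KO array 2 lay nearer to the wild-type arrays than the other Ahr-KO arrays did.

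**Figure D3:**
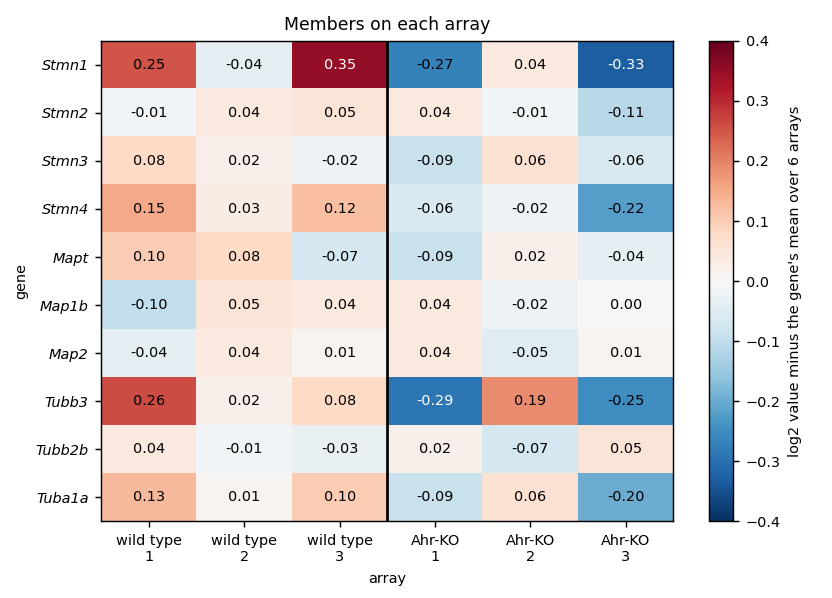
Each cell gives a gene's log2 value minus its mean over the 6 arrays (colour scale from -0.4 to 0.4), with wild-type arrays left of the line and Ahr-KO arrays right. Stmn1, Stmn4, Tubb3 and Tuba1a are low on Ahr-KO arrays 1 and 3 and high on wild-type arrays 1 and 3, while Map2 and Tubb2b stay within 0.1 of their means.

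The genes whose values followed Stmn1 most closely were found by the root mean square difference of the centred log2 values over the 6 arrays. The nearest named genes were Fnbp1l, a membrane-bending F-BAR protein, at 0.05 log2, and the sphingosine phosphatase Sgpp2 at 0.06. The citron kinase gene Cit, the adenylyl cyclase Adcy8 and the cytochrome Cyp2c69 followed at 0.07 each. Cyp2c69 read only 2.93 to 3.46 log2, far under the median signal. A nearer gene was passed over because it is known by a predicted-gene name or code alone. Fnbp1l read 8.59, 8.89 and 8.50 in Ahr-KO and 9.19, 8.80 and 9.32 in wild type. It repeated the high Ahr-KO array 2 and the low wild-type array 2 of Stmn1, a likeness for which these genes were picked. Among the members Tubb3 came nearest to Stmn1 (0.14, rank 142 of 22179 genes), followed by Stmn4 (0.15, rank 280) and Tuba1a (0.15, rank 285). The other 6 members ranked between 3088 and 11244.

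In the wider microtubule machinery the differences were small. Of 131 genes in 8 lists, 122 were measured and 0 passed the adjusted threshold. At an unadjusted p under 0.05, 1 was higher and 1 lower, or 1.64% together beside 6.18% of all genes. Among genes at or above the median signal, 2.22% were higher and 2.69% lower at that level. The median difference of the 122 was -0.04 log2, and 67.2% of them had a lower mean in Ahr-KO, beside 56.9% of all genes at or above the median signal.

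The remaining tubulins went both ways. Of 12 measured, 6 had a lower and 6 a higher mean in Ahr-KO, with 0 at an unadjusted p under 0.05 and a median of 0.02, which was 0.08 without wild-type array 1 and -0.05 among genes at or above the median signal. The lowest p belonged to Tubb6, a widely expressed beta-tubulin, at 0.20 ± 0.09 (SE), whose genotypes did not overlap, and to Tuba1c, an alpha-tubulin, at 0.28 ± 0.16. Both averaged under the median signal. Tubb6 was the 1 gene of the 12 without overlap, beside 1370 of all 22180 genes that were higher in Ahr-KO without overlap. Tubulin folding cofactors and the chaperonin that folds tubulin had lower means for 15 of 17 genes. All 17 were at or above the median signal, where 56.9% of genes had a lower mean. The median of these cofactors was -0.07. That median was -0.03 without Ahr-KO array 1, -0.04 without wild-type array 3 and -0.03 without both arrays of high Ttr. Among them Tbcb, a cofactor that captures alpha-tubulin, read 8.24, 8.35 and 8.20 in Ahr-KO and 8.52, 8.41 and 8.43 in wild type (-0.19 ± 0.08, SE; limma unadjusted p = 0.0390, adjusted p = 0.806). Tbcb was 1 of 4 among the 17 genes that were lower without overlap, beside 7.51% of the genes at or above the median signal. It was the single gene of that list with an unadjusted p under 0.05, which it kept in 7 of 15 alternatives.

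Other structural proteins of the microtubule lattice had lower means for 12 of 16 genes, with a median of -0.05. All 16 were at or above the median signal, where 56.9% of genes had a lower mean. Map7, a kinesin-recruiting protein, differed by -0.14 ± 0.08 (SE) and Tppp, an oligodendrocyte protein that bundles microtubules, by -0.13 ± 0.08. Tubulin-modifying enzymes split 9 lower and 7 higher (median -0.03, and -0.0089 without Ahr-KO array 3), with the deglutamylase Agbl4 at -0.17 ± 0.09 and the glutamylase Ttll4 at -0.13 ± 0.07. Neither of these lists held a gene at an unadjusted p under 0.05 (0 and 0).

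At the ends of microtubules, end-binding and anchoring proteins split 10 lower and 9 higher (median -0.02). Mapre2, the end-binding protein EB2, had the single unadjusted p under 0.05 of that list, kept in 7 of 15 alternatives and lost with a replicate block and with median centring (limma unadjusted p = 0.0646 and 0.0539). It read 9.47, 9.49 and 9.47 in Ahr-KO and 9.27, 9.33 and 9.29 in wild type, higher in Ahr-KO on every array (0.18 ± 0.07, SE; limma unadjusted p = 0.0300, adjusted p = 0.797). Of the 19 genes, 2 were higher and 2 lower without overlap, beside 606 and 853 of the 11360 genes at or above the median signal. Severing and depolymerising proteins (8 of 10 measured) had a median of 0.0016, with the kinesins Kif2b at 0.18 ± 0.11 and Kif2c at 0.10 ± 0.07, both under the median signal. Kinases and phosphatases that act on stathmins and tau (17 of 20 measured) had a median of -0.0058, with the phosphatase subunit Ppp2r2b at -0.13 ± 0.07 and the kinase Fyn at 0.10 ± 0.07. Both counts at an unadjusted p under 0.05 were 0.

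The motors that run on these tracks all had slightly lower means in Ahr-KO. This held for 17 of 17 measured kinesin, dynein and dynactin genes, with differences from -0.17 to -0.02 and a median of -0.06. Of them, 0 had an unadjusted p under 0.05. All 17 were at or above the median signal, where 56.9% of genes had a lower mean and the median difference was -0.02. Dctn1, the large dynactin subunit, read 9.36, 9.50 and 9.36 in Ahr-KO and 9.63, 9.63 and 9.45 in wild type (-0.17 ± 0.08, SE). Kif5c, a neuronal kinesin heavy chain, read 11.48, 11.43 and 11.45 in Ahr-KO and 11.54, 11.61 and 11.56 in wild type (-0.11 ± 0.07, SE). Genes of one array share its deviations, so the 17 directions are not independent.

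**Figure D4:**
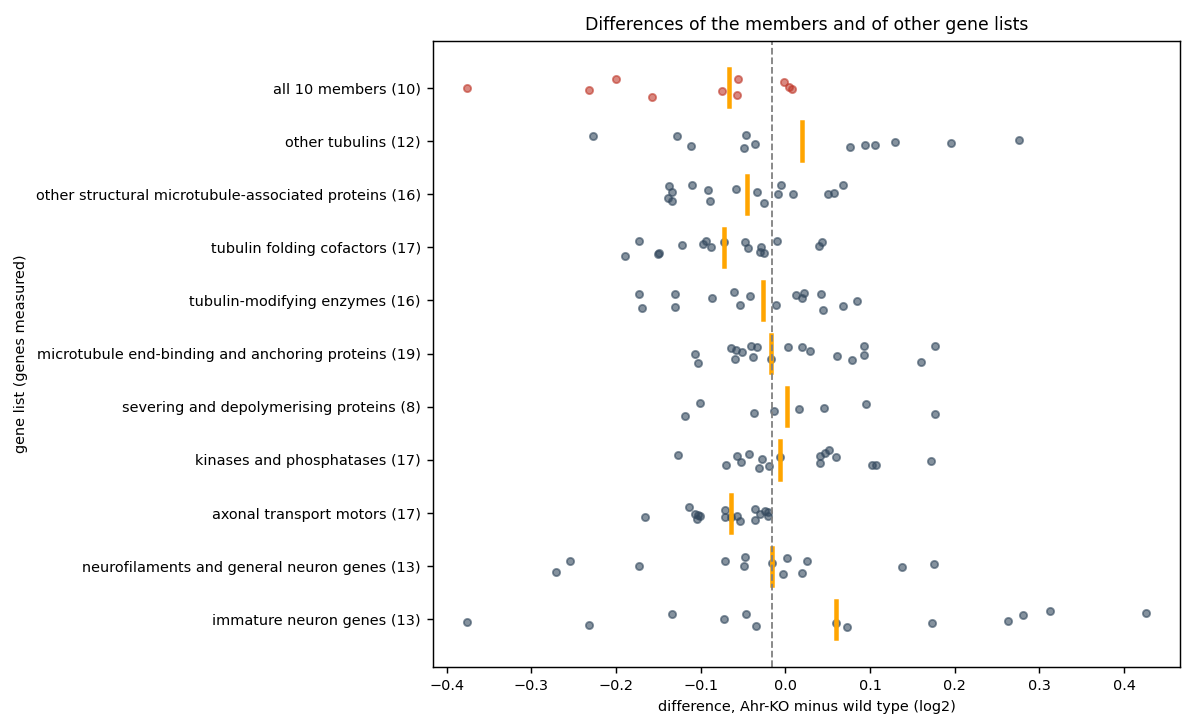
Difference between genotypes (horizontal axis, Ahr-KO minus wild type in log2) for each measured gene of the 10 members (red) and of 10 other lists (dark), with each list's median as an orange bar. The dashed line is the median of all genes at or above the median signal (-0.02), and the motors lie wholly below 0.

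Neurofilaments and other general neuron genes had a median of -0.02 (from -0.03 to 0.0069 with single arrays left out), with 8 of 13 lower. At an unadjusted p under 0.05, 2 were lower and 0 higher, beside 2.69% and 2.22% of the genes at or above the median signal. Nefh, the heavy neurofilament of large axons, read 8.87, 8.90 and 8.94 in Ahr-KO and 9.06, 9.18 and 9.22 in wild type (-0.25 ± 0.08, SE; limma unadjusted p = 0.009745, adjusted p = 0.770). Gap43, the growth-cone protein, read 9.66, 9.67 and 9.54 in Ahr-KO and 9.95, 9.70 and 10.03 in wild type (-0.27 ± 0.10, SE; limma unadjusted p = 0.0260, adjusted p = 0.797). Neither gene overlapped between genotypes, and Gap43 shared the low wild-type array 2 of Stmn1. Of the 13 genes, 3 were lower without overlap and 1 was higher, beside 853 and 606 of the 11360 genes at or above the median signal. The higher one was Rbfox3 (0.18 ± 0.08, SE; limma unadjusted p = 0.0659).

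Within a list of 13 immature neuron genes, which includes Stmn1 and Tubb3, 6 had a lower and 7 a higher mean in Ahr-KO. Besides these members, Dcx (-0.13), Neurod1 (-0.07) and Sox4 (-0.05), genes of differentiating neurons, and Neurod6 (-0.03) had the lower means. They are named here to complete the count. Neurod6 is also one of the excitatory neuron markers used above, and Prox1 one of the granule neuron markers, so neither marks immature neurons alone. The axon guidance factor Draxin differed by 0.43 ± 0.12 (SE), Igfbpl1 by 0.26 ± 0.09 and Prox1, the granule cell transcription factor, by 0.28 ± 0.10, against -0.38 for Stmn1 and -0.23 for Tubb3. At an unadjusted p under 0.05, 3 were higher and 1 was lower, beside 3.54% and 2.65% of all genes, and 0 passed the adjusted threshold. The median was 0.06, and it was 0.01 without wild-type array 1 and -0.03 among genes at or above the median signal. Draxin and Igfbpl1 averaged under the median signal in both genotypes.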

How the data were processed

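The authors deposited a log2 signal for each probe set on each array. The tools named, per the submitters' processing notes, were RMA and Affymetrix Expression Console, whose versions are not given. RMA quantile-normalizes arrays and so removes overall shifts in RNA content. The table held 41345 rows, of which 23521 were paired with 1 symbol. Symbols were updated through Entrez IDs to RefSeq (GRCm38.p6, 23328 matched), and the brightest probe set per gene was kept, which gave 22180 genes. The comparison of genotypes used limma 3.58.1 under R 4.3.3 (lmFit, eBayes without trend, two-sided, Benjamini-Hochberg over all genes, threshold 0.05) on 6 arrays without covariates, with 4 residual and 4.33 prior degrees of freedom. The median signal is that of all rows with 1 symbol, 6.41 log2. The number of arrays limits the precision. The members and lists were chosen with earlier results of these data known. All members were named, with the genes of each list at unadjusted p under 0.05 or otherwise the 2 with the lowest p, and the 5 genes most like the member with the lowest p. Simulated data held 22180 genes with 200 changed. There the fit recovered 71.2% of genes changed by 0.5 log2 and 99.2% of those changed by 1. The noise was normal, independent between genes and scaled from the fit's own standard errors. In the deposited data Ahr, at -0.78 log2, did not pass (limma adjusted p = 0.320), so these shares do not give the power here. Alternatives covered the variance model, array weights, normalization, dim probe sets, averaged probe sets, a replicate block and leaving out arrays. Figures were drawn with matplotlib 3.10.9.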

Additional observations from a re-analysis of the deposited data

How the results depend on the processing

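Under 15 alternatives, 1 of them chosen after seeing the data, no member passed the adjusted threshold. Stmn1, Stmn2, Stmn3, Stmn4, Mapt and Tubb3 kept lower means in Ahr-KO in every one, with Stmn1 from -0.49 to -0.29 log2 (adjusted p 0.566 to 0.973) and Stmn4 from -0.26 to -0.14. The unadjusted p was under 0.05 in 11 of 15 for Stmn1 and 7 of 15 for Stmn4. The count of members lower at an unadjusted p under 0.05 was 1 with quantile normalization, 1 with the mean of all probe sets, 1 without both arrays of high choroid plexus genes, and 0 to 4 when single arrays were left out. It was 0 without Ahr-KO array 1, Ahr-KO array 3, wild-type array 1 or wild-type array 3, and 4 without Ahr-KO array 2 (Stmn1, Stmn4, Tubb3 and Tuba1a). Fewer arrays were tested in each of these. Over all genes 2 passed with an intensity trend and 0 otherwise. Map1b changed sign with array weights (-0.0037), quantile normalization (-0.0075) and median centring (-0.0022), and ran from -0.0417 to 0.0358 with single arrays left out. Map2 did so with quantile normalization (0.0041), and ran from -0.0237 to 0.0222 with single arrays left out. Tubb2b did so with median centring (-0.0063) and without the arrays of high choroid plexus genes (-0.0106), and ran from -0.02 to 0.0391 with single arrays left out. Tuba1a did so with the mean of its probe sets (0.0126), through its second probe set. With the replicate number as a block the count of members was 1. Each array holds another mouse per the labels. Same-numbered arrays deviated together at r = -0.15, -0.22 and 0.05 across genes, with 2 of 6 arrays nearest to their own number. The labels name no batch, and this check cannot exclude one shared by same-numbered arrays.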
